A study of Mus musculus with 48 samples.

Results

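The extracellular matrix is represented here by 64 genes for collagen chains, laminin chains, matrix glycoproteins and proteoglycans, lysyl oxidases, matrix metalloproteinases and their tissue inhibitors. They were picked by gene symbol alone, from the probe sets of the array that name a single gene: collagen chains, laminin alpha, beta and gamma chains, Mmp, Timp and Lox genes, and Fn1, Fbn1, Eln, Sparc, Dcn, Bgn and Lum. The 64 genes are carried by 91 of the 12422 probe sets analysed and stand among 8251 genes named on the array. Where a gene had several probe sets, as 22 of the 64 did, the probe set with the highest mean over the 48 arrays stood for it. The 64 comprise 8 fibrillar collagen chains, 7 chains of basement membrane collagens, 16 other collagen chains, 9 laminin chains, 6 glycoproteins and proteoglycans, 2 lysyl oxidases, 13 metalloproteinases and 3 inhibitors. No probe set naming Fbn1 alone was found, and Fbn1 was not analysed here.

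Fibrillar collagens form the rope-like fibres that give a tissue its tensile strength, and small proteoglycans such as decorin and lumican coat those fibres and set their width. Type IV collagen and laminins build separate sheets, the basement membranes, on which epithelium, endothelium and muscle fibres rest. Lysyl oxidases cross-link collagen and elastin, metalloproteinases cut the finished matrix, and the Timp proteins block the metalloproteinases.

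RNA of 4 tissues (lung, liver, spleen and heart) was hybridised to 48 Affymetrix mouse arrays, 1 for each sample. The animals were male littermates aged 3 months, and each tissue was sampled in A/J and in C57BL/6J mice, both inbred, at a time 1 and a time 2, with 3 biological replicates in each of the 16 groups. The labels give neither a treatment nor the meaning of the 2 times, nor do they name the animal behind each sample or the number of litters. The p-values below therefore measure the spread between these samples. Levels are the deposited values on a log2 scale, on which a difference of 1 is a factor of 2. Within each tissue the 2 times were run in different array series, by the codes in the labels' array names, so that time and array series cannot be told apart. Tissues were compared at time 2, where all 24 arrays share a series.

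The array medians lay between 8.86 and 9.01. The tissue labels were checked against marker lists: 6 of 6 measured hepatocyte markers were highest in liver by the enrichment rule given below, 9 of 10 cardiomyocyte markers in heart, 5 of 5 B cell markers in spleen and 4 of 6 lung epithelium markers in lung. Several libraries stood apart. Exocrine pancreas markers averaged above 11 in 5 of the 12 spleens and in 1 of the 12 livers, a C57BL/6J sample of time 2 at 12.67. The control probe sets at the ends of the Gapdh transcript differed by 1.34 and 1.41 in 2 A/J hearts of time 1. These were replicates 1 and 3, and the other hearts were at 0.08 to 0.30. A large difference can be a sign of shortened RNA. The actin control ends differed the other way, by -0.83 and -0.79 in these 2 hearts and -0.52 in the remaining A/J heart of time 1. RNA quality was not tested. In lungs of time 2 the Gapdh difference was 1.36 to 1.96 in A/J and 1.05 to 1.37 in C57BL/6J. Results below use all arrays of a tissue unless stated. Some heart results are also given without the 2 A/J hearts, and some spleen results without the 5 spleens. Without the pancreas-rich liver, Sparc remained the single strain call in liver (0.58, adjusted p = 0.0422, limma) and 26 genes were called for time in place of 29. All 6 lungs of time 2 had a Gapdh difference above 1, so lung results were not recomputed without them.

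At time 2, 27 of the 64 matrix genes spanned at least 1 log2 unit between their highest and lowest tissue mean, as 29.2% of all probe sets did, and 29 spanned less than 0.5. Lung held the highest mean for 17 of the 27 and the lowest for none, whereas liver held the lowest for 16 and spleen for 9. Over all probe sets with such a span, lung was highest for 24.5% and lowest for 15.7%. Liver was lowest for 34.8% of them and spleen for 25.1%. The order lung above heart above spleen above liver was followed by 13 of the 27 genes (48.1%), and by 7.44% of all probe sets with a span of at least 1. These 13 were Col1a1, Col3a1, Col5a2, Col4a1, Col4a2, Col6a1, Col6a2, Col6a3, Eln, Sparc, Mmp3, Timp2 and Timp3. In bulk RNA, fewer cells of a type and less RNA in each cell cannot be told apart. Lung also had the largest Gapdh end differences at time 2, at 1.05 to 1.96. They were 0.08 to 0.23 in heart, 0.16 to 0.35 in liver and 0.48 to 0.90 in spleen. The liver and the spleens of time 2 rich in pancreas markers were kept. The part of RNA quality and of pancreas tissue in these tissue differences was not tested.

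The tissues were also tested in pairs (limma, Benjamini-Hochberg over 12422 probe sets, adjusted p below 0.05). Spleen was below lung for 34 of the 64 genes and above it for 2, where 21.8% of all probe sets were lower and 26.4% higher. Liver was below heart for 32 genes (31.4% of all probe sets) and above it for 6 (20.2%), and below lung for 33 (29.9%) and above it for 12 (31.8%). Heart was above spleen for 33 genes, with 34.9% of all probe sets, and below it for 6, with 28%. Heart and lung were more evenly set, with 20 genes higher in heart (36%) and 23 lower (27%). Between liver and spleen, 18 genes were higher in liver (27.7%) and 17 lower (29.5%).

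**Figure D1:**
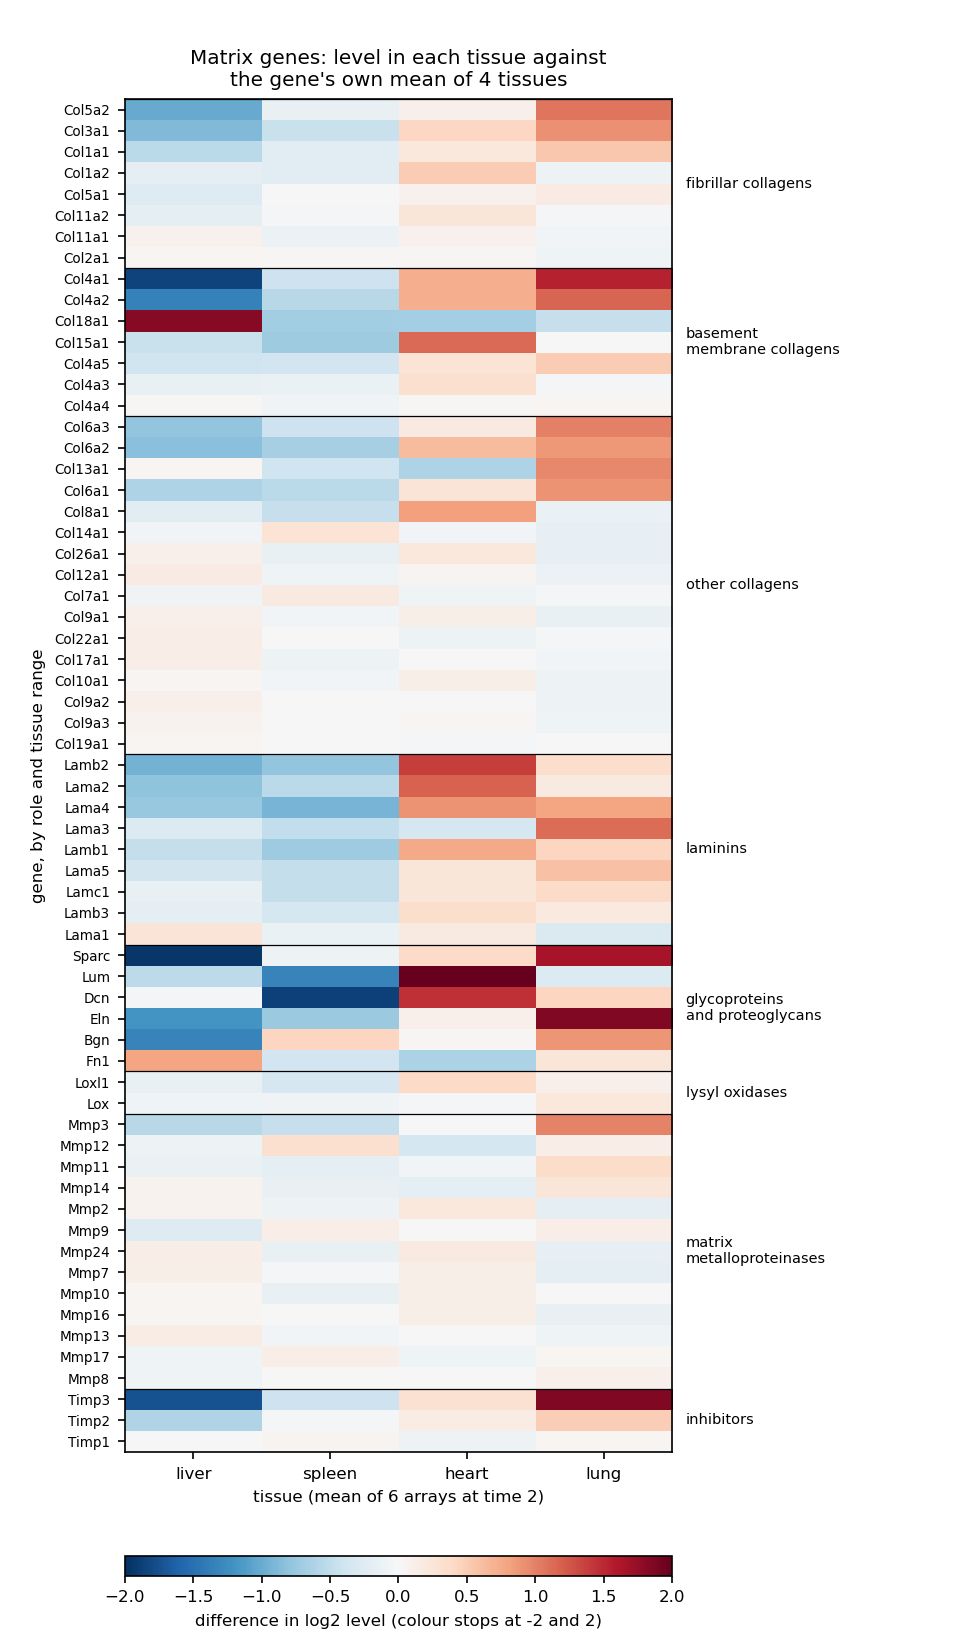
Heat map of the 64 matrix genes (rows, by role and by span between tissues) in 4 tissues (columns); colour is the mean of 6 arrays at time 2 minus the gene's own mean over the 4 tissues, in log2 units. Col4a1, Col4a2, Sparc, Eln and Timp3 are lowest in liver and highest in lung, Lum and Dcn are highest in heart and lowest in spleen, Col18a1 is highest in liver, and most metalloproteinases are close to flat.

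Among the fibrillar collagens, Col3a1, the collagen of pliable tissues, averaged 10.80 ± 0.32 in lung, 10.29 ± 0.36 in heart, 9.44 ± 0.20 in spleen and 8.99 ± 0.05 in liver (SD, n = 6 arrays of both strains). Lung exceeded liver 3.50-fold (adjusted p = 3.05e-11, limma), and each neighbouring pair of tissues in that order differed. Col5a2, a chain of the minor collagen that starts fibrils, was at 9.73 ± 0.27 in lung and 7.65 ± 0.20 in liver (SD, n = 6), 4.22-fold apart, but heart and spleen did not separate (adjusted p = 0.0628, limma). Col1a1, a chain of type I collagen, ran from 10.43 ± 0.08 in liver to 11.52 ± 0.11 in lung (SD, n = 6). The span of Col2a1, the cartilage collagen, was 0.13.

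Probe sets for type I collagen disagreed in size. The probe set standing for Col1a2, the partner chain of Col1a1, had tissue means of 11.14 to 11.87. A second Col1a2 probe set ran from 9.02 in liver to 11.10 in lung, and a second Col1a1 probe set from 8.37 in liver to 11.13 in lung, so the spans given for these 2 genes depend on the probe set.

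Basement membrane collagens did not share a single pattern. Col4a1 and Col4a2, the paired chains found in nearly all basement membranes, followed the lung to liver order. Col4a1 averaged 12.51 ± 0.07 in lung, 11.69 ± 0.35 in heart, 10.56 ± 0.26 in spleen and 9.11 ± 0.15 in liver, and Col4a2 averaged 12.76 ± 0.17, 12.32 ± 0.31, 11.04 ± 0.18 and 10.24 ± 0.20 in the same order (SD, n = 6). Lung exceeded liver 10.5-fold for Col4a1 and 5.74-fold for Col4a2 (adjusted p = 1.83e-17 and 2.8e-15, limma). The 2 genes lie head to head on chromosome 8, and their RefSeq transcripts (GRCm38.p6) start within the same stretch: Col4a1 occupies chr8:11198423-11312889 and Col4a2 chr8:11312805-11449287. Col4a3 and Col4a4, which overlap on chromosome 1 in the same way, spanned less than 0.5 between tissues. Col4a3 averaged 6.78 over the 48 arrays, below the array medians, and its small span may be background. Col4a5 spanned 0.92, with its highest mean in lung.

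Col18a1, whose product releases endostatin, was the matrix gene enriched in liver. Enriched means here at least 1 log2 unit above each of the other 3 tissues at time 2 with adjusted p below 0.05 in all 3 comparisons. By that rule 1 of the 64 genes was enriched in liver, where 4.11% of all probe sets were. The 6 livers of time 2 stood between 12.86 and 13.18, whereas the mean was 10.70 ± 0.06 in lung, 10.48 ± 0.08 in heart and 10.46 ± 0.17 in spleen (SD, n = 6). Liver exceeded lung, the nearest tissue, by 2.28, a 4.86-fold difference (adjusted p = 2.62e-19, limma), with no overlap between any liver and any other array. Of the other 4 Col18a1 probe sets 3 were enriched in liver as well, and the remaining one was flat at 8.54 to 8.71.

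Col15a1, a collagen of muscle and vessel basement membranes related to Col18a1, was enriched in heart instead. It averaged 10.34 ± 0.59 in heart, 9.21 ± 0.21 in lung, 8.76 ± 0.17 in liver and 8.48 ± 0.16 in spleen (SD, n = 6), and heart exceeded lung 2.18-fold (adjusted p = 1.9e-06, limma). The wide spread in heart followed strain, as described below.

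Of the 64 genes, 4 were enriched in heart (2.51% of all probe sets), 4 in lung (2.25%) and 0 in spleen (3.53%), so that with Col18a1 9 genes were enriched in some tissue, 14.1% of the 64 against 12.4% of all probe sets. The heart genes were Lum, Col15a1, Dcn and Lamb2. The lung genes were Eln, Timp3, Lama3 and Sparc. Mmp3 and Col5a2 stopped just short of the limit in lung, at 0.98 above heart, and Lama2 and Col8a1 just short of it in heart, at 0.997 and 0.95 above lung.

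Lumican and decorin, small leucine-rich proteoglycans that bind collagen fibrils, lie next to each other on chromosome 10 (Dcn at chr10:97479500-97518163, Lum at chr10:97565501-97572703, GRCm38.p6), with no other protein-coding gene between them. Lum stood at 12.11, 11.91 and 11.73 in the A/J hearts of time 2 and at 11.35, 10.89 and 10.59 in the C57BL/6J hearts. No other tissue reached those levels, with means of 9.02 ± 0.26 in lung, 8.78 ± 0.21 in liver and 7.95 ± 0.04 in spleen (SD, n = 6). Heart exceeded lung 5.32-fold and spleen 11.1-fold (adjusted p = 5.19e-12 and 2.88e-15, limma).

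Dcn stood at 13.66 ± 0.12 in heart, 12.63 ± 0.16 in lung, 12.18 ± 0.13 in liver and 10.34 ± 0.48 in spleen (SD, n = 6). Spleen was lowest for both proteoglycans, and liver exceeded spleen 3.58-fold for Dcn (adjusted p = 3.12e-11, limma). The margin of heart over lung for Dcn was 1.03, and it dropped below 1, to 0.99 and 0.998, without A/J time 2 heart replicate 1 or 2. With quantile normalization that margin was 0.97.

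Biglycan (Bgn), another member of that proteoglycan family, had another order. It was at 13.93 ± 0.15 in lung, 13.47 ± 0.16 in spleen, 13.06 ± 0.22 in heart and 11.70 ± 0.10 in liver (SD, n = 6), so that spleen, lowest for Lum and Dcn, was above heart. Fibronectin (Fn1), which cells bind through integrins and which hepatocytes secrete into plasma, was highest in liver at 10.97 ± 0.13 and lowest in heart at 9.55 ± 0.15 (SD, n = 6), 2.69-fold apart (adjusted p = 9.03e-15, limma).

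Elastin (Eln), which gives lung and arteries their recoil, was enriched in lung. The A/J lungs of time 2 stood at 13.63, 13.74 and 13.22 and the C57BL/6J lungs at 13.97, 13.81 and 13.40, against 11.88 ± 0.19 in heart, 11.03 ± 0.20 in spleen and 10.58 ± 0.10 in liver (SD, n = 6). Every lung was above every array of the other tissues, and lung exceeded heart 3.36-fold (adjusted p = 1.48e-13, limma). A second Eln probe set was also highest in lung, at 8.22, and at 6.66 to 7.43 elsewhere.

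Lox, the enzyme that cross-links elastin and collagen, was flat by the probe set that stands for it, with means of 7.50 to 7.79. A second Lox probe set was at 8.72 in lung and at 6.89 to 7.07 in the other tissues, and met the enrichment rule. Loxl1, which acts on elastin, had its highest mean in heart (9.01 ± 0.18, SD, n = 6), and liver and lung did not separate (adjusted p = 0.0823, limma).

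Sparc, a collagen-binding glycoprotein that cells secrete while matrix is laid down, was at 11.98 ± 0.19 in lung, 10.71 ± 0.35 in heart, 10.22 ± 0.49 in spleen and 8.38 ± 0.43 in liver (SD, n = 6). Lung exceeded heart 2.41-fold and liver 12.1-fold (adjusted p = 8.47e-10 and 5.47e-19, limma). The SDs outside lung are wide because the strains differed there.

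Laminins are trimers of an alpha, a beta and a gamma chain. Lama2 and Lamb2, chains of the laminin around muscle fibres, were highest in heart. Lama2 averaged 10.47 ± 0.15 in heart, 9.47 ± 0.12 in lung, 8.75 ± 0.15 in spleen and 8.49 ± 0.15 in liver, and Lamb2 averaged 10.34 ± 0.23, 9.32 ± 0.09, 8.17 ± 0.19 and 8.02 ± 0.35 (SD, n = 6). Heart exceeded liver 3.93-fold and 5.02-fold (adjusted p = 1.11e-16 and 5.56e-14, limma). The margin of Lamb2 over lung was 1.02 and dropped below 1, to between 0.94 and 0.997, without A/J time 2 heart replicate 1 or 3 or C57BL/6J time 2 lung replicate 1 or 2. With both times in the fit the Lamb2 margin was 0.94. The Lama2 margin, 0.997 at time 2, was then 1.16.

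Lama3, the alpha chain of the laminin that anchors epithelium, had another order, with lung first. It was at 9.61 ± 0.23 in lung, at 8.21 ± 0.20 in liver and at 8.14 ± 0.12 in heart, with spleen lowest (SD, n = 6), and lung exceeded liver 2.63-fold (adjusted p = 2.35e-12, limma). For Lamb3, its beta partner, the probe set that stands for the gene was at 10.39 in heart and 10.23 in lung, whereas a second probe set was enriched in lung (11.01 against 9.04 to 9.91). Lama4 and Lama5, alpha chains of vessel walls, were high in heart and lung alike for Lama4 (10.04 ± 0.18 and 9.93 ± 0.17, adjusted p = 0.368, limma) and highest in lung for Lama5 (10.97 ± 0.10, SD, n = 6). Lamc1, the gamma chain shared by most laminins, had tissue means of 10.69 to 11.56.

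Type VI collagen forms beaded filaments near cell surfaces. Its chains Col6a1, Col6a2 and Col6a3 were 2.85-fold, 3.26-fold and 3.48-fold higher in lung than in liver (adjusted p of 4.33e-13 or less, limma). Col6a1 and Col6a2 are neighbours on chromosome 10, and for each of them liver and spleen did not separate (adjusted p = 0.509 and 0.199). Col13a1, a transmembrane collagen, was 2.98-fold higher in lung than in heart. The cartilage and skin chains Col9a1, Col9a2, Col9a3, Col10a1, Col7a1 and Col17a1 each spanned less than 0.5.

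**Figure D2:**
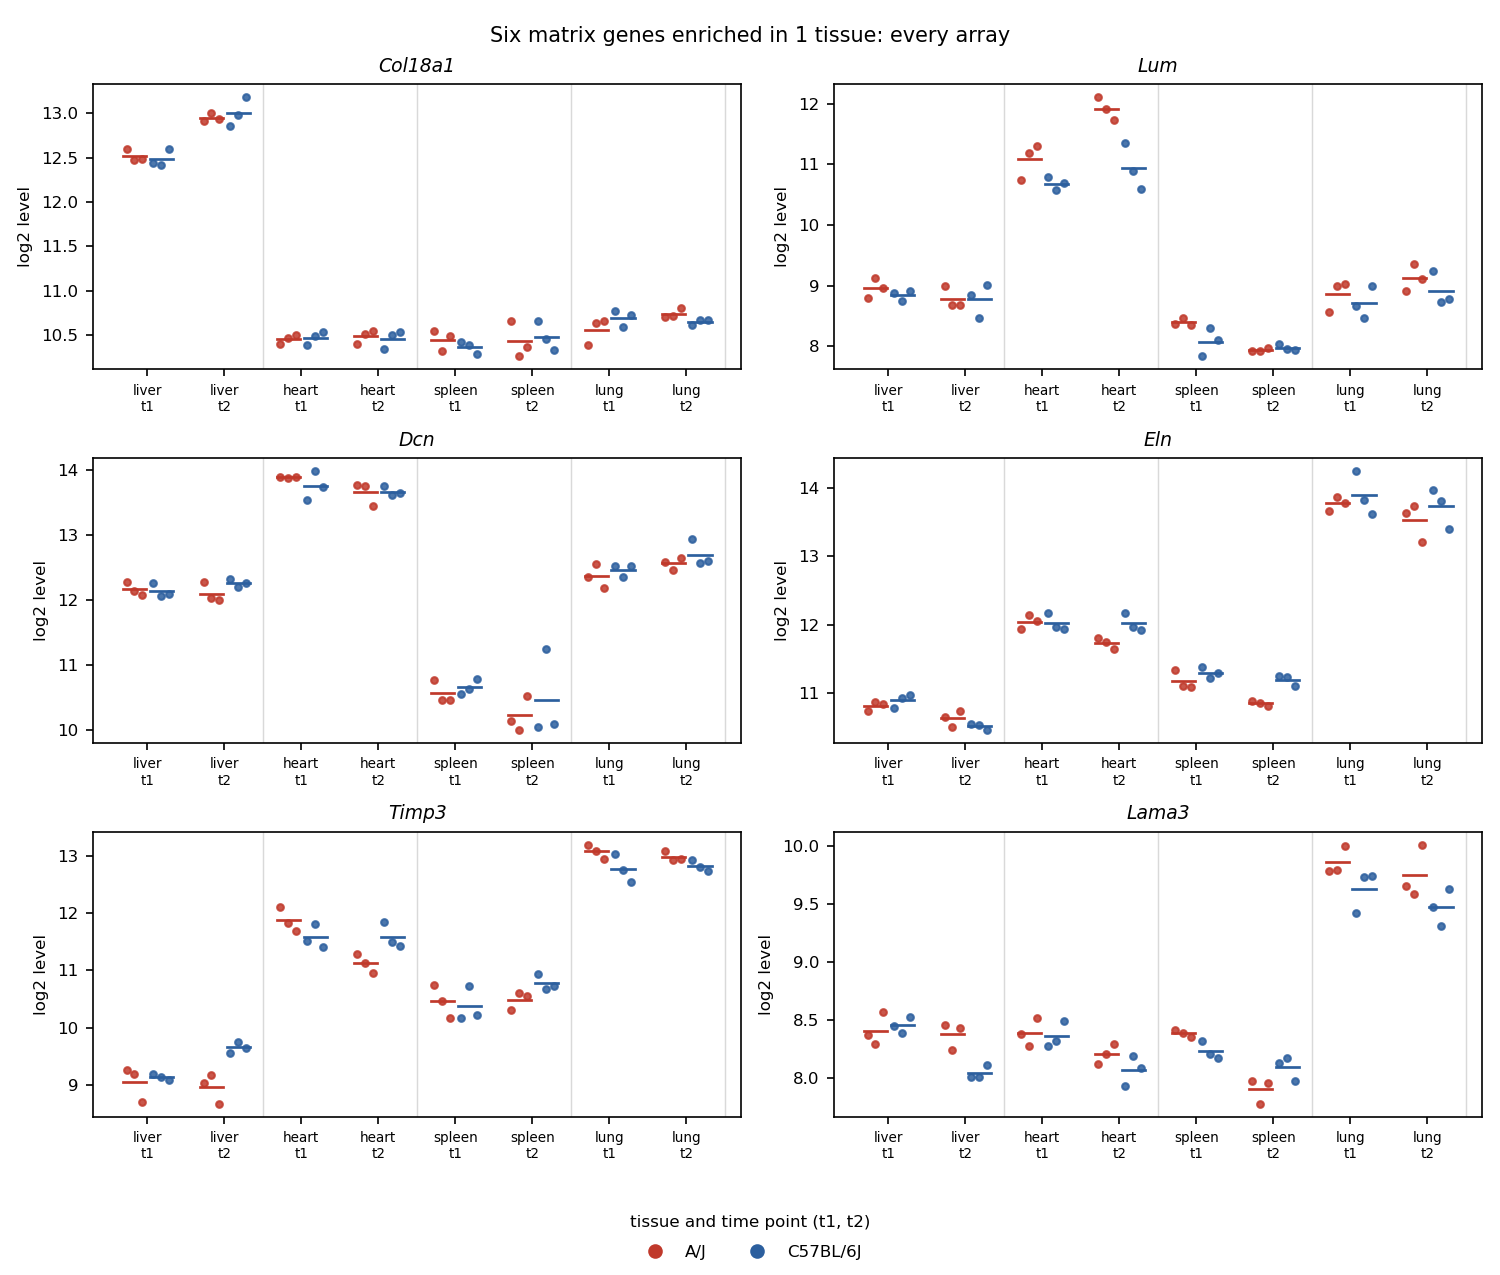
Level of 6 enriched matrix genes on each of the 48 arrays (points; log2 scale, vertical axes differ and do not start at 0), by tissue and time, with A/J in red and C57BL/6J in blue; short lines are means of 3 arrays. Liver stands alone for Col18a1 at both times, heart is highest for Lum and Dcn, and lung is highest for Eln, Timp3 and Lama3.

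Metalloproteinases were mostly flat between tissues. Of the 13, Mmp3 alone spanned at least 1. Mmp10, Mmp13, Mmp7, Mmp8 and Mmp17 averaged 5.56, 5.94, 6.32, 6.51 and 6.66 over the 48 arrays. These levels are below the array medians, and flat levels there may be background. Mmp3, a stromelysin that cuts proteoglycans and activates other proteases of its family, was at 8.40 ± 0.48 in lung, 7.41 ± 0.12 in heart, 6.95 ± 0.17 in spleen and 6.84 ± 0.13 in liver (SD, n = 6), and lung exceeded heart 1.98-fold (adjusted p = 9.55e-07, limma). Mmp14, a membrane-bound collagenase, spanned 0.42, Mmp2, a gelatinase of stromal cells, spanned 0.41, and Mmp9, a gelatinase of neutrophils and macrophages, spanned 0.39. Mmp12, the macrophage elastase, was highest in spleen at 8.85 ± 0.23 (SD, n = 6).

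Mmp3 belongs to a cluster of genes read in the same direction on chromosome 9, of which Mmp13, Mmp12, Mmp3, Mmp10, Mmp8 and Mmp7 are among the 64. Mmp3, Mmp10, Mmp13 and Mmp7 each have a start preceded by the letters TGANTCA and TATAA. Mmp12 has a start with TGANTCA and no TATAA, and Mmp8 has no TGANTCA. Likeness of the sequences before these starts, and any part of it in the levels, was not tested. Each line holds the 100 bases before a RefSeq start (GRCm38.p6, plus strand). Capitals mark TGANTCA, the AP-1 type motif, and TATAA, the letters of a TATA box. The motifs do not overlap in these lines.
Mmp3 at chr9:7445722-7445821: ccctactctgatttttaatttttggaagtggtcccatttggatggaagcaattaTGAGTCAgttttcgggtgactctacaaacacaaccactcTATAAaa
Mmp10 at chr9:7502242-7502341: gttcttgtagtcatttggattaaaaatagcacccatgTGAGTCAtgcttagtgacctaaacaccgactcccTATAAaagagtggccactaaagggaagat
Mmp13 at chr9:7272414-7272513: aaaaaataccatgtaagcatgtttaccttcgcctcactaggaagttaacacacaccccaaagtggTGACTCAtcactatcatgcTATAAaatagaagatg
Mmp12 at chr9:7347274-7347373: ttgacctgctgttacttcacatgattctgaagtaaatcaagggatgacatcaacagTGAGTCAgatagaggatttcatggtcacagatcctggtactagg
Mmp7 at chr9:7691990-7692089: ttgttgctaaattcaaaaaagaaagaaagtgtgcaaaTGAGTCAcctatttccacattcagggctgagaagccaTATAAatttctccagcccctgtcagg

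Counted from the start, with -1 the base before it, the AP-1 type motif begins at -46 in Mmp3, -63 in Mmp10, -35 in Mmp13, -44 in Mmp12 and -63 in Mmp7. In the lines shown TATAA begins at -7 in Mmp3, -29 in Mmp10, -16 in Mmp13 and -26 in Mmp7. Searched on both strands over the 250 bases before each start, TGANTCA occurred in 6.75% of 32851 promoters and TATAA in 22.8%. TGANTCA together with TATAA on the gene's own strand occurred in 1.55% of them, and among the 47 promoters of 41 matrix genes with an entry in 4, those of Mmp3, Mmp10, Mmp13 and Mmp7. Another RefSeq start of Mmp12, another of Mmp7 and the single start of Mmp8 held no TGANTCA. A match of letters is a description of the sequence, not a site of binding. Mmp10, Mmp13 and Mmp7 spanned 0.27, 0.24 and 0.30 between tissues and Mmp8 0.20, against 1.55 for Mmp3. Mean levels of Mmp10, Mmp13, Mmp7 and Mmp8 were low, at 5.56, 5.94, 6.32 and 6.51, so their small spans may be background.

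The inhibitors ranged from flat to strongly graded. Timp1 averaged 11.78 ± 0.05 to 11.94 ± 0.14 in the 4 tissues (SD, n = 6). Timp3, the inhibitor that stays bound to matrix, was at 12.90 ± 0.12 in lung, 11.36 ± 0.31 in heart, 10.63 ± 0.21 in spleen and 9.31 ± 0.42 in liver (SD, n = 6), 12-fold apart at the extremes and 2.91-fold apart between lung and heart (adjusted p = 4.02e-18 and 1.33e-10, limma). Timp2, which also takes part in activating Mmp2, was at 10.77 ± 0.46 in lung and 9.68 ± 0.11 in liver (SD, n = 6), and heart did not separate from spleen or lung (adjusted p = 0.334 and 0.052, limma).

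Between strains, A/J minus C57BL/6J over both times, 49 of the 64 genes passed the test in no tissue, 13 in 1 tissue, Mmp9 in 2 and Sparc in 3. The counts were 1 in liver, where 4.07% of all probe sets were called, 7 in heart (7.48%), 6 in spleen (12.7%) and 4 in lung (5.22%), by limma with Benjamini-Hochberg adjustment over 12422 probe sets. As shares of the 64 genes these are 1.56%, 10.9%, 9.38% and 6.25%, near the background in lung and below it in liver and spleen. Median differences of the 64 were 0.042 in liver, 0.034 in heart, -0.010 in spleen and -0.052 in lung, against 0.018, 0.0035, -0.0052 and -0.016 over all probe sets. No fibrillar or basement membrane collagen was called over both times in any tissue.

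**Figure D3:**
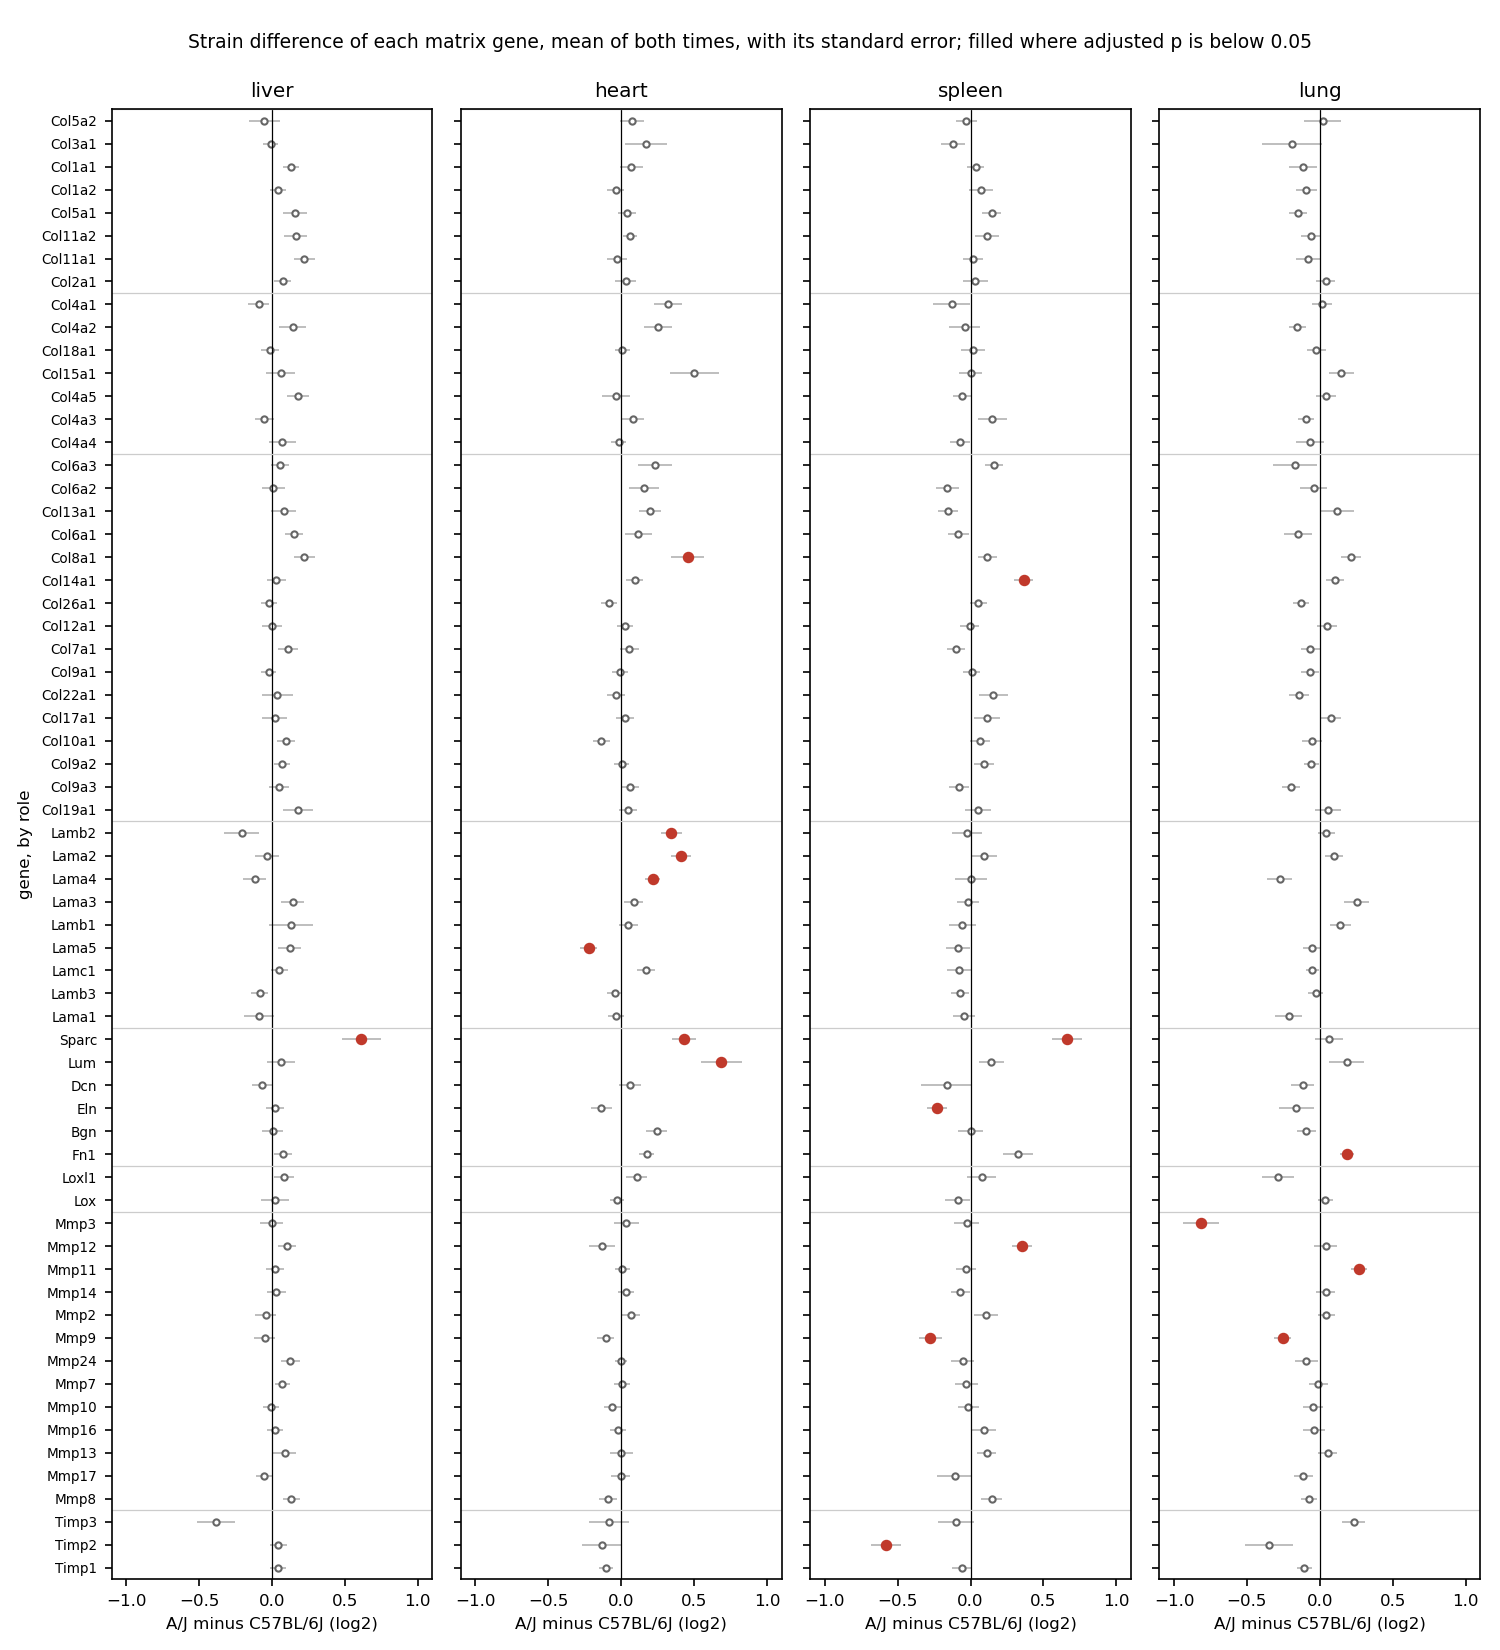
A/J minus C57BL/6J for the 64 matrix genes in each tissue, both times together (log2 difference with its standard error; filled points have adjusted p below 0.05). Sparc is higher in A/J in liver, heart and spleen and close to 0 in lung, Mmp3 is lower in A/J lungs at -0.81, and the 7 filled heart points include 4 laminin chains.

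Sparc was called in more tissues than any other of the 64 genes. In spleen the A/J values were 10.50, 10.24 and 10.23 at time 1 and 10.52, 10.82 and 10.56 at time 2. The C57BL/6J values were 9.74, 10.03 and 9.71 at time 1 and 9.81, 9.58 and 10.05 at time 2. All 6 A/J spleens were above all 6 C57BL/6J spleens, and the difference was 0.66 (SE 0.10, 1.58-fold, adjusted p = 0.000962, limma).

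In liver Sparc stood at 8.57, 8.58 and 8.08 in A/J at time 1 and at 8.75, 8.79 and 8.69 at time 2. C57BL/6J livers were at 8.32, 7.47 and 7.95 at time 1 and at 7.84, 7.92 and 8.28 at time 2. The strains overlapped at time 1 and were apart at time 2, and the difference was 0.61 (SE 0.13, 1.53-fold, adjusted p = 0.0165, limma).

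In heart Sparc stood at 10.86, 10.75 and 11.08 in A/J at time 1 and between 10.94 and 11.11 at time 2. C57BL/6J hearts were at 10.80, 10.59 and 10.56 at time 1 and at 10.47, 10.27 and 10.44 at time 2. Here too the strains overlapped at time 1 and not at time 2, with a difference of 0.43 (SE 0.083, 1.35-fold, adjusted p = 0.00412, limma). Leaving out any single array of the tissue kept these 3 calls.

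Lung, where Sparc was highest, showed no such step. A/J lungs were at 12.03, 12.12 and 11.91 at time 1 and 11.97, 12.12 and 12.10 at time 2, and C57BL/6J lungs between 11.80 and 12.31 at time 1 and between 11.60 and 12.07 at time 2. The difference was 0.064 (SE 0.098, adjusted p = 0.764, limma). The strain difference of Sparc depended on tissue by the F test of the strain by tissue terms (adjusted p = 0.0207, limma). Leaving out the 5 spleens with high pancreas markers gave a Sparc difference of 0.80 in spleen. Leaving out the A/J hearts with Gapdh end differences above 1 gave 0.45 in heart. Each of these fits leaves a group with 1 array. The heart fit leans towards time 2, where the Sparc difference was 0.62, against 0.24 at time 1.

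**Figure D4:**
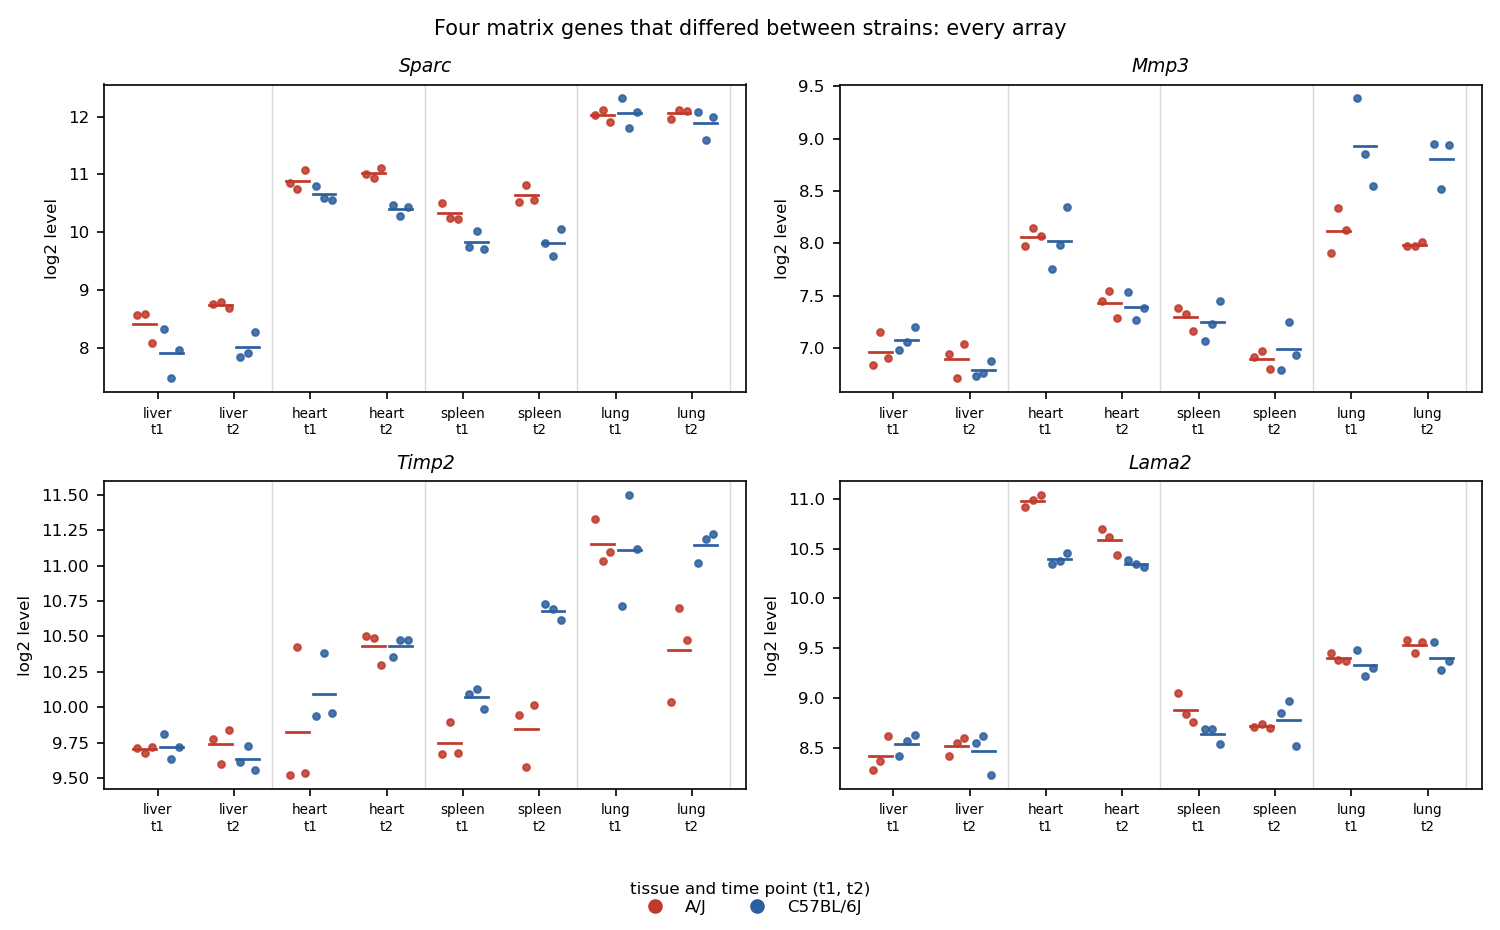
Level of Sparc, Mmp3, Timp2 and Lama2 on each of the 48 arrays (points; log2 scale, vertical axes differ and do not start at 0), by tissue and time, with A/J in red and C57BL/6J in blue; short lines are means of 3 arrays. Sparc is higher in A/J outside lung, Mmp3 is lower in A/J lungs alone, Timp2 is lower in A/J spleens, and Lama2 is higher in A/J hearts.

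In heart, 6 of the 7 called genes were higher in A/J (4.57% of all probe sets were called higher) and 1 was lower (2.91%). The muscle laminin chains were among them. Lama2 was at 10.92, 10.99 and 11.04 in A/J at time 1 and 10.70, 10.61 and 10.44 at time 2. C57BL/6J hearts were at 10.35, 10.38 and 10.45 at time 1 and 10.38, 10.35 and 10.32 at time 2. At each time A/J was above C57BL/6J without overlap, and the difference was 0.41 (SE 0.069, 1.33-fold, adjusted p = 0.00157, limma).

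Its partner Lamb2 was at 11.04, 10.99 and 10.84 in A/J hearts at time 1 and 10.70, 10.24 and 10.54 at time 2. C57BL/6J hearts were at 10.55, 10.58 and 10.56 at time 1 and 10.11, 10.30 and 10.18 at time 2. The groups overlapped at time 2 through a single A/J array, and the difference was 0.34 (SE 0.070, 1.27-fold, adjusted p = 0.0069, limma). Lamc1, the gamma chain of the same trimer, differed by 0.17 (SE 0.061) and was not called (adjusted p = 0.126).

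Lum was at 10.75, 11.19 and 11.31 in A/J hearts at time 1 and 12.11, 11.91 and 11.73 at time 2. C57BL/6J hearts were at 10.79, 10.58 and 10.69 at time 1 and 11.35, 10.89 and 10.59 at time 2. A/J was above at time 2 without overlap, and the difference over both times was 0.69 (SE 0.14, 1.61-fold, adjusted p = 0.00709, limma). Its neighbour Dcn differed by 0.059 (SE 0.075, adjusted p = 0.738).

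The other called heart genes were smaller or less stable. Col8a1, a network collagen of vessel walls, was 0.45 higher in A/J (adjusted p = 0.0221) and Lama4 0.21 higher (adjusted p = 0.0225), while Lama5 was lower by -0.22 (adjusted p = 0.0283, limma), as it was by a second probe set (-0.21, adjusted p = 0.017). The Col8a1 call ended without A/J time 1 replicate 2, A/J time 2 replicate 1 or 3, or C57BL/6J time 2 replicate 2 or 3, at 0.40 to 0.53 over all arrays left out in turn. That of Lama4 ended without A/J time 2 replicate 1, C57BL/6J time 1 replicate 2 or C57BL/6J time 2 replicate 1 or 3, at 0.19 to 0.24. That of Lama5 ended without A/J time 1 or time 2 replicate 3, C57BL/6J time 1 replicate 1 or 2 or C57BL/6J time 2 replicate 2, at -0.25 to -0.19.

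Each time was also tested alone. The counts at time 1 were 0 in liver (2.77% of all probe sets), 2 in heart (3.53%), 3 in spleen (4.85%) and 0 in lung (2.89%), with 3 liver and 11 lung genes at an unadjusted p below 0.05, where 13.6% and 14.7% of all probe sets passed (limma). At time 2 they were 4 in liver (10.1%), 10 in heart (4.03%), 4 in spleen (8.92%) and 2 in lung (3.56%). At time 2, 10 matrix genes were higher in A/J hearts and 0 lower, where 1.97% of all probe sets were higher and 2.05% lower; at an unadjusted p below 0.05, 22 of the 64 differed in either direction and 15.9% of all probe sets. They spanned fibres, vessel wall and basement membrane: Col15a1, Col8a1, Lum, Sparc, Col4a1, Col3a1, Col6a3, Col4a2, Col6a2 and Lama4. Col15a1 stood at 11.02, 10.53 and 10.97 in A/J against 9.94, 9.66 and 9.89 in C57BL/6J at time 2, and at 9.73, 10.25 and 10.01 against 10.12, 9.83 and 10.07 at time 1. The difference was 1.01 at time 2 (adjusted p = 0.00241, limma) and -0.0070 at time 1. Col4a1 stood at 11.85, 11.87 and 12.21 against 11.52, 11.46 and 11.24 at time 2 (0.57, adjusted p = 0.0214, limma), without overlap.

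The test of that change itself, strain by time, called 0 of the 64 genes in heart (0.386% of all probe sets; 18 of the 64 and 10.7% of all at an unadjusted p below 0.05, limma). Col15a1 came nearest, at 1.02 (SE 0.20, adjusted p = 0.0559). It passed the test with quantile normalization, with the filter on low values, with the mean of all probe sets per gene, with the replicate block and with all 48 arrays in 1 fit. It did not pass with the intensity trend and robust variances, or without the A/J hearts with Gapdh end differences above 1. It also passed without A/J time 1 replicate 2, without A/J time 2 replicate 2 and without C57BL/6J time 1 replicate 2. Leaving out A/J time 1 replicates 1 and 3, those with a large Gapdh end difference, leaves 1 A/J heart at time 1. The strain difference over both times then leans towards time 2, so the genes called by that fit are not listed.

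Some cell type markers differed between strains in the hearts, where 4.57% of all probe sets were higher in A/J and 2.91% lower. Smooth muscle markers were higher in A/J for 2 of 7 (median 0.21), with mean levels of 10.33 to 10.53 in A/J and 10.04 to 10.31 in C57BL/6J, and Acta2 rose by 1.03. Fibroblast markers were higher for 1 of 12 (median 0.14), at 9.62 to 9.81 in A/J and 9.49 to 9.61 in C57BL/6J. Macrophage markers were lower for 5 of 11 (median -0.23). Endothelial markers were higher for 1 of 8 (median 0.0047), and of 10 cardiomyocyte markers 1 was higher and 1 lower. Erythroid markers were lower for 2 of 6, lung epithelium markers for 1 of 6 and exocrine pancreas markers for 1 of 8. The part of cell numbers in the matrix differences was not tested.

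**Figure D5:**
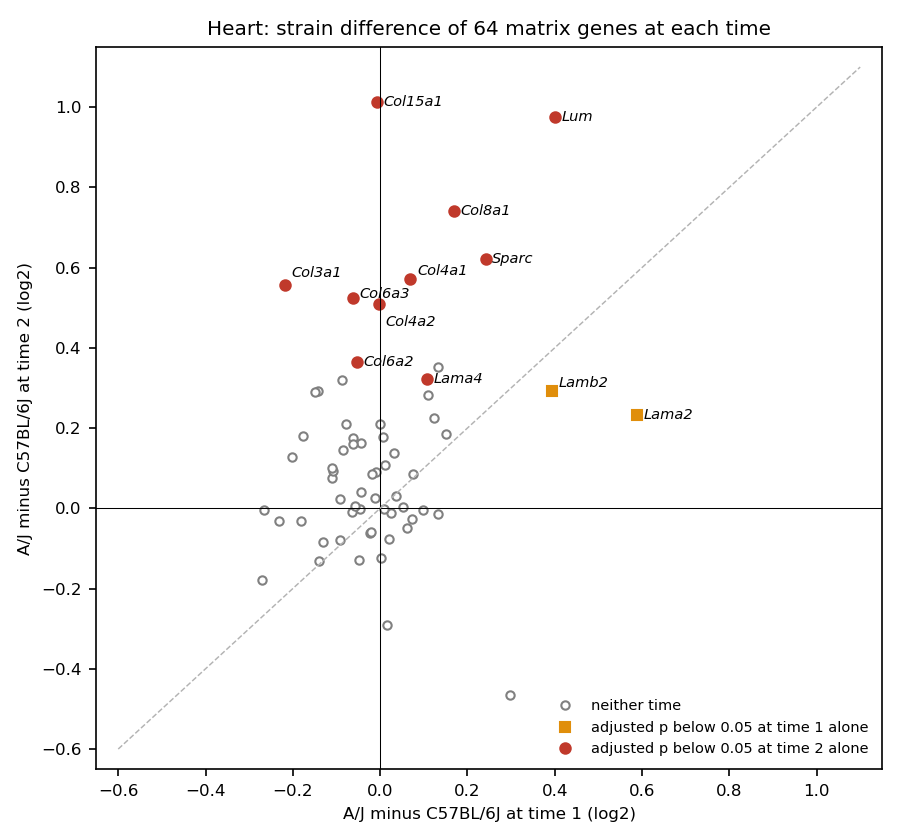
A/J minus C57BL/6J in heart at time 1 (horizontal) and time 2 (vertical), log2 units, 1 point for each of 64 matrix genes; the dashed line marks equal differences. The 10 genes called at time 2 alone are all above 0 on the vertical axis and, apart from Lum at 0.40, lie nearer to 0 at time 1, from -0.22 to 0.24; Lama2 and Lamb2 are the 2 called at time 1 alone.

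In lung 2 genes were higher in A/J (2.7% of all probe sets) and 2 lower (2.52%). The largest strain difference was in Mmp3, which was lower in A/J. The A/J lungs stood at 7.91, 8.34 and 8.12 at time 1 and at 7.97, 7.97 and 8.01 at time 2. The C57BL/6J lungs stood at 9.38, 8.85 and 8.55 at time 1 and at 8.95, 8.52 and 8.94 at time 2. No A/J lung reached any C57BL/6J lung, and the difference was -0.81 (SE 0.12, 1.76-fold, adjusted p = 0.00112, limma). It was -0.81 at time 1 and -0.82 at time 2.

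The strain difference of Mmp3 depended on tissue by the F test (adjusted p = 1.96e-05, limma), with -0.0025 in liver, 0.035 in heart and -0.027 in spleen. At time 2 Mmp3 averaged 6.84 in liver, 7.41 in heart and 6.95 in spleen. These levels are below the array medians, and the small differences there may be background. In lung too, the filter on low values removes Mmp3. Mmp3 is on the plus strand at chr9:7445822-7455975 (GRCm38.p6). None of the other cluster genes Mmp7, Mmp8, Mmp10, Mmp12 and Mmp13 was called for strain in lung. Apart from Mmp12, their levels were low and may be background.

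Other lung calls were small. Mmp11, a stromelysin of stromal cells, stood at 8.25, 8.26 and 8.21 in A/J at time 1 and 8.16, 8.41 and 8.22 at time 2. C57BL/6J lungs stood at 8.08, 8.02 and 7.97 at time 1 and at 7.93, 8.01 and 7.91 at time 2. All A/J lungs were above all C57BL/6J lungs, by 0.27 on average (SE 0.054, adjusted p = 0.00971, limma).

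Mmp9 was lower in A/J lungs, at 9.45, 9.24 and 9.30 at time 1 and 9.15, 9.21 and 9.19 at time 2. C57BL/6J lungs were at 9.63, 9.41 and 9.63 at time 1 and 9.50, 9.41 and 9.48 at time 2. The strains were apart at time 2 and overlapped at time 1, with a difference of -0.26 (SE 0.057, adjusted p = 0.0159, limma). The mean of the Mmp9 probe sets differed by -0.15 and was not called (adjusted p = 0.102). Neutrophil markers were lower in A/J lungs for 3 of 9 (median -0.38), with mean levels of 8.74 to 9.35 in A/J and 9.20 to 9.91 in C57BL/6J; their part in the Mmp9 difference was not tested.

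Fn1 was 0.18 higher in A/J lungs (SE 0.048, adjusted p = 0.0412, limma), apart from C57BL/6J at each time. The call ended with each of 11 of the 12 lungs left out in turn, all but C57BL/6J time 1 replicate 1, with adjusted p up to 0.104. For Timp2 at time 2 alone, A/J lungs stood at 10.04, 10.70 and 10.48 and C57BL/6J lungs at 11.02, 11.19 and 11.23 (-0.74, adjusted p = 0.0262, limma). The same 3 A/J lungs had Gapdh end differences of 1.96, 1.36 and 1.54, and the C57BL/6J lungs 1.37, 1.36 and 1.05; the part of RNA quality was not tested.

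In spleen, 3 genes were higher in A/J (6.05% of all probe sets) and 3 lower (6.67%). After Sparc came Col14a1, a collagen that sits on fibril surfaces. It was at 9.12, 9.19 and 9.09 in A/J at time 1 and 8.85, 8.93 and 9.06 at time 2. C57BL/6J spleens were at 8.88, 8.91 and 8.60 at time 1 and 8.54, 8.58 and 8.56 at time 2. A/J was above at each time, by 0.36 (SE 0.065, 1.29-fold, adjusted p = 0.00215, limma).

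Timp2 was lower in A/J spleens. It was at 9.67, 9.90 and 9.67 in A/J at time 1 and 9.95, 9.58 and 10.01 at time 2. C57BL/6J spleens were at 10.09, 10.13 and 9.99 at time 1 and 10.73, 10.70 and 10.61 at time 2. The strains were apart at each time and the difference was -0.58 (SE 0.10, 1.49-fold, adjusted p = 0.00226, limma).

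The Timp2 result rests on 1 of 3 probe sets. The other 2 differed by 0.096 and 0.084 between the strains in spleen, and the mean of all 3 differed by -0.13 (adjusted p = 0.254). Levels of the probe set that stands for Timp2 were also low, at 9.52 and 9.54, in the 2 A/J hearts with Gapdh end differences of 1.34 and 1.41, and 10.42 in the remaining A/J heart of that group, whose Gapdh difference was 0.10. In spleen the Gapdh differences were 0.58 to 1.31 in A/J and 0.48 to 0.88 in C57BL/6J. Their part in the Timp2 difference was not tested.

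Mmp12 was at 9.27, 9.20 and 9.26 in A/J spleens at time 1 and 9.06, 8.88 and 9.08 at time 2. C57BL/6J spleens were at 8.82, 8.84 and 8.89 at time 1 and 8.49, 8.91 and 8.68 at time 2. The strains were apart at time 1 and overlapped at time 2, with a difference of 0.35 (SE 0.071, adjusted p = 0.0048, limma), while a second Mmp12 probe set differed by 0.10 (adjusted p = 0.543). Macrophage markers were lower in A/J spleens for 6 of 11 (median -0.39), where 6.67% of all probe sets were lower. Their mean levels were 10.97 to 11.24 in A/J and 11.59 to 11.94 in C57BL/6J. Their part in the Mmp12 difference was not tested.

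Mmp9 and Eln were lower in A/J spleens by -0.28 and -0.23 (adjusted p = 0.0336 and 0.0381, limma). By the mean of its probe sets Mmp9 differed by -0.20 in spleen (adjusted p = 0.109). The Mmp9 call ended with each of 8 of the 12 spleens left out in turn, all but A/J time 1 replicates 1 and 2 and C57BL/6J time 1 replicates 2 and 3 (-0.33 to -0.23). The Eln call ended with each of 10, all but A/J time 1 replicate 1 and C57BL/6J time 1 replicate 2 (-0.28 to -0.21). Neutrophil markers were higher in A/J spleens for 5 of 9 (median 0.59) and erythroid markers for 5 of 6 (median 1.71), and their part in these differences was not tested. Without the 5 spleens rich in pancreas markers, 7 remain and Sparc was the single gene called; Col14a1 was then at 0.41 (adjusted p = 0.0989) and Timp2 at -0.52 (adjusted p = 0.185).

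In liver Sparc was the single call over both times. At time 2 alone 4 genes passed: Sparc, Lama3 and Lamb1 were higher in A/J, and Timp3 was lower. Timp3 stood at 9.05, 9.18 and 8.68 in A/J livers and at 9.56, 9.76 and 9.66 in C57BL/6J livers of time 2, a difference of -0.69 (adjusted p = 0.0107, limma) without overlap. At time 1 it stood at 9.27, 9.20 and 8.71 against 9.19, 9.15 and 9.09, and the strain by time difference was -0.61 (SE 0.20, adjusted p = 0.0924).

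Strain by time was called for 0 of the 64 genes in liver (4.9% of all probe sets), spleen (0.209%) and lung (0.177%) as well. At an unadjusted p below 0.05 there were 9 in liver, 13 in spleen and 9 in lung, against 24%, 19.6% and 18% of all probe sets (limma).

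Whether strain differences depended on tissue was tested for all 64 genes, and 9 were called (14.1%, with 18.5% of all probe sets). Besides Mmp3 and Sparc they were Mmp12 (adjusted p = 0.00909), Col14a1 (0.0133), Lama2 (0.0173) and Mmp11 (0.0201, limma F test), followed by Lamb2, Lama4 and Lum. Without all arrays of a replicate number, 2 to 4 genes were called. The Lama2 difference was 0.41 in heart and -0.031 in liver, 0.090 in spleen and 0.098 in lung, and the Lum difference 0.69 in heart and at most 0.18 elsewhere. For Lama4 the sign turned between heart (0.21) and lung (-0.28).

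Time 2 differed from time 1 for 29 of the 64 genes in liver, where 50.3% of all probe sets did, 25 in heart (34.9%), 25 in spleen (31.9%) and 19 in lung (34.7%), with the array series changing at the same step. Of these genes 23 fell and 6 rose in liver, 14 and 11 in heart, 19 and 6 in spleen, and 12 and 7 in lung. Shares of all probe sets that fell or rose were not counted. Median time differences of the 64 in these tissues were -0.12, -0.021, -0.079 and 0.0034. Over all probe sets they were -0.057, -0.016, -0.039 and -0.018. Without the 5 spleens rich in pancreas markers, the spleen count was 1, Lamb1. Lamb1, the beta chain of many early laminins, fell by 0.53 in liver, 0.51 in heart, 0.70 in spleen and 0.65 in lung, and Col12a1, a fibril-associated collagen, fell by 0.45, 0.27, 0.46 and 0.35 (adjusted p of 0.00935 or less in each case, limma). By the mean of all its probe sets Lamb1 fell by 0.29 in liver and 0.26 in lung, and Col12a1 fell by 0.22 in spleen and 0.16 in lung.

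Markers of other cell types moved with time as well. Hepatocyte markers fell for 6 of 6 in lung (median -1.03) and rose for 5 of 6 in spleen (median 0.62), and smooth muscle markers fell for 5 of 7 in liver (median -0.27). The Gapdh end difference in lung was 0.64 to 1.08 at time 1 and 1.05 to 1.96 at time 2. Their part in the time differences was not tested.

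Other genes turned with tissue. Lamb2 rose by 0.46 in liver and fell by 0.42 in heart and 0.57 in lung. Liver gained Col18a1 (0.47) and Col4a1 (0.34), heart gained Lum (0.55) and lost Mmp3 (-0.63), spleen gained Col4a1 (0.42), and lung gained Col13a1 (0.51). By the mean of all probe sets per gene the Col18a1 gain was 0.15, that of Col13a1 0.25 and that of Timp2 in heart 0.31. The Timp2 gain of 0.47 in heart was 0.23 without the hearts whose Gapdh end difference was above 1, a fit with 1 A/J heart of time 1. The Col4a1 call in spleen ended without A/J time 1 replicate 2, C57BL/6J time 1 replicate 1 or C57BL/6J time 2 replicate 3, at 0.34 to 0.51 over all arrays left out in turn.

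Genes that act with the matrix were read from 6 lists. Of 11 measured collagen maturation genes, 4 were higher in A/J hearts and none lower (median 0.13), where 4.57% of all probe sets were higher and 2.91% lower: Crtap, of the complex that hydroxylates collagen prolines (0.58, adjusted p = 0.000673), Ppib, a prolyl isomerase of that complex (0.24), P3h3, a prolyl hydroxylase (0.22), and Pcolce, which speeds procollagen trimming (0.21, limma). In the other tissues 1 of the 11 was called, Serpinh1, the collagen chaperone, lower in A/J spleens (-0.41, adjusted p = 0.0045).

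Of 11 basement membrane partners, Sgca, a sarcoglycan that helps link muscle fibres to laminin, was higher in A/J hearts (0.40, adjusted p = 0.00202) and enriched in heart, as was Sgcb. Agrn and Itga3 were enriched in lung. Agrn was also higher in A/J spleens (0.26) and lungs (0.18). Nid2 was higher in A/J livers (0.39), and Hspg2 was lower in A/J spleens (-0.30). Of 12 collagen and fibronectin receptors, the collagen receptor Ddr2 was lower in A/J in heart (-0.26) and lung (-0.70), and Ddr1 was higher in A/J hearts (0.36) and lower in A/J spleens (-0.45, limma). Cd44, a receptor for hyaluronan, was lower in A/J spleens (-0.74).

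Of 21 elastic fibre and matricellular genes, Mfap2, Mfap4, Postn and Ogn were enriched in lung and Fbln2 in heart, and Ccn2, a matrix protein induced by TGF beta, was lower in A/J livers (-0.79, adjusted p = 0.000661). Ltbp4 was lower in A/J livers (-0.29) and higher in A/J hearts (0.22). Fmod was lower in A/J hearts (-0.14), and Mfap4 and Igfbp3 were higher in A/J lungs (0.52 and 0.57). Of 8 protease control genes, 3 were higher in A/J lungs, where 2.7% of all probe sets were: Plaur, Ctsk and Adam10. Adam10 was also higher in A/J spleens (0.78). Of 12 TGF beta signalling genes, Tgfb1 was lower in A/J spleens (-0.64) and Tgfbi in A/J hearts (-0.34). Tgfb2 and Smad2 were higher in A/J lungs (0.36 and 0.30, limma). Over all probe sets, 4.07% were called for strain in liver, 7.48% in heart, 12.7% in spleen and 5.22% in lung.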

How the data were processed

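The authors deposited 1 table of 12488 probe sets on 48 arrays; per the labels, targets were made by standard Affymetrix steps from about 20 µg of total RNA. The deposited values are taken as log2 intensities from their range (4.25 to 14.7), and the array medians are nearly equal. The summary and normalization method are not given in the sources used here, and neither are detection calls, so levels near the low end may be background.

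The 66 control probe sets were left out. Of the other 12422, 10833 have 1 gene symbol in the platform annotation. Strain was fitted in each tissue with time as a covariate (9 residual degrees of freedom), strain by time as an interaction (8), tissues over the 24 arrays of time 2, and strain by tissue over 48 arrays, with limma 3.58.1 in R 4.3.3, Benjamini-Hochberg over 12422 probe sets and a threshold of 0.05. The members and lists were chosen with earlier results of these data known. Genes named are the called members with the smallest p or largest difference in each comparison, and main members of each role whatever their result; genes of the 6 pathway lists and of the marker lists, and genes of smaller effect, were named beside counts after their values were seen. Promoter sequences are RefSeq's (GRCm38.p6).

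The alternatives were quantile normalization, a filter on low values, the mean of all probe sets per gene, an intensity trend with robust variances, the replicate block, each time alone, all arrays in 1 fit, spleens with pancreas markers above 11 or hearts with a Gapdh end difference above 1 left out, and each array left out. Leaving out the pancreas-rich liver was added after seeing the data. The fit was tested on simulated data.

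No 2 arrays held identical values (highest correlation 0.997). Replicate numbers were not taken as pairs, since not every same-numbered pair correlated above 0.1: between strains, same-numbered arrays of a tissue had median correlations of deviations of -0.076 in liver, 0.024 in heart, -0.0086 in spleen and 0.071 in lung, and between times the highest median was 0.15 in lung, where 4 of 6 pairs were above 0.1.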

Additional observations from a re-analysis of the deposited data

Results flagged for a closer look

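The strain difference of 9 matrix genes depended on tissue by the F test of the strain by tissue terms (adjusted p below 0.05, limma). The adjusted p was 1.96e-05 for Mmp3, 0.00909 for Mmp12, 0.0133 for Col14a1, 0.0173 for Lama2, 0.0201 for Mmp11, 0.0207 for Sparc, 0.0226 for Lamb2, 0.0228 for Lama4 and 0.0265 for Lum. These are 14.1% of the 64 genes, where 18.5% of all probe sets were called. Lama2, Lamb2 and Lum differed most in heart, Mmp12 and Col14a1 in spleen, and Mmp3 and Mmp11 in lung. Without all arrays of a replicate number, the count was 2 to 4.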

How the results depend on the processing

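The 24-array and 12-array fits bound what can be seen: genes low on the array have no detection call, and the time difference cannot be separated from the array series.

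For strain in liver the count of 1 became 0 with the filter on low values, which removes Sparc there, 0 at time 1 alone, 4 at time 2 alone and 3 with all 48 arrays in 1 fit. In heart 7 became 2 at time 1 alone. Without the arrays with a high Gapdh difference 1 A/J heart of time 1 was left, and that count is not given. In spleen 6 became 3 at time 1 alone and 1 without the pancreas-rich arrays. In lung 4 became 2 with the filter, which removes Mmp3 and Mmp11, 0 at time 1 alone, 2 at time 2 alone and 7 with all 48 arrays. For strain by time the count of 0 became 1 in heart with quantile normalization, the filter, the mean of all probe sets, the replicate block and all 48 arrays, 1 in liver and in spleen with all 48 arrays, and 1 in lung with the mean of all probe sets. For time, the filter gave 16 in liver, 16 in heart and 13 in spleen, and leaving out the pancreas-rich arrays gave 1 in spleen. Apart from the filter and the smaller sets of arrays, the cause was not tested.

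Leaving out each array gave 1 to 2 calls for strain in liver, 5 to 10 in heart, 4 to 6 in spleen and 3 to 6 in lung; 0 to 2 for strain by time in liver and in heart, 0 to 1 in spleen and 0 in lung; 25 to 33 for time in liver, 21 to 30 in heart, 17 to 27 in spleen and 16 to 24 in lung; and 1 enriched gene in liver, 2 to 6 in heart, 0 in spleen and 4 to 6 in lung. Without a replicate number, 2 to 4 genes were called for strain by tissue in place of 9.

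The replicate block gave 1 call for strain in liver, 5 in heart, 4 in spleen and 4 in lung; Col8a1, Lama4, Mmp9, Eln and Fn1 lost theirs. One named difference turned: Col9a3 over time in spleen, 0.31 by its main probe set, was -0.068 by the mean of its probe sets. With the probe set of largest span between tissues, chosen after seeing the data, 6 genes were enriched in lung.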
